A study of Arabidopsis thaliana with 2 samples.

Results

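In wild-type Arabidopsis seedlings, 291 genes had transcripts on membrane-bound polysomes (MBPs) but few ribosome footprints on their exons for the amount of mRNA. MBPs are transcripts with their ribosomes that are recovered together with cellular membranes, mainly the endoplasmic reticulum (ER). Each gene was read from a single isoform, the one with the largest average exon value of the libraries. A gene was kept when its mRNA-seq exon value was at least 5 RPM (reads per 1000000 reads of the library) and, after a pseudocount of 1 was added to both values, at least 7.94 times its ribo-seq value. The ratios below are log2 values of footprints (ribo-seq RPM) over mRNA (mRNA-seq RPM) with this pseudocount, so that lower values mean fewer footprints per transcript. Of 25224 genes in the exon table, 25182 remained after AT1G01010 to AT1G01400 were left out, 13570 reached the mRNA-seq minimum, and the 291 low-footprint genes were 2.14% of these. Such ratios chose the genes, so they are given as a description, with no test.

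The data consist of 1 MBP ribo-seq library and 1 MBP mRNA-seq library, both from WT seedlings 13 days of age on ½ Murashige and Skoog plates under long days (16h light). No other genotype or treatment was compared, whole seedlings were pooled, and no difference has a replicate check. As recovered from the values, depth was 38438721 reads in the footprint library and 66958223 in the mRNA library. In whole seedlings, fewer cells of a type and less RNA per cell cannot be told apart. The green tissue gene RBCS1A stood at 9535 RPM of footprints and 13066 RPM of mRNA, and the ER chaperone BIP2 stood at 124 and 126. Of the seed storage genes, SESA1 stood at 0.156 and 0.0597, SESA4 at 0.104 and 0.0, and OLEO1 at 0.260 and 0.224. CRA1, also of this group, was higher, at 3.75 and 7.35. The pollen gene VGD1 stood at 0.0780 and 0.134. In the study's description only ribo-seq fragments were selected by length, from RNase I-treated monosomes, so both libraries may differ in more than ribosome protection, and the part of this in the ratios was not tested.

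In ribosome profiling, the fragments that ribosomes shield from nuclease mark where ribosomes sit, and their number beside the mRNA level of the same gene is a common measure of how heavily a transcript is translated. Plant transcripts can carry few ribosomes on the main reading frame when an upstream open reading frame (uORF) in the 5' UTR captures scanning ribosomes. MicroRNAs (miRNAs) can also act on plant transcripts through target sites, most of which lie in coding sequence, by slicing them or by lowering their translation. Membrane and secreted proteins are made by ribosomes on the ER, which MBPs contain.

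Among the low-footprint genes, 7 known miRNA targets carry, in the coding sequence, a site that pairs with a member of 5 miRNA families, and these sites are shown so that they can be read beside the values of their genes. Sequences were read from the TAIR10.1 genome (RefSeq), 5′ to 3′ as DNA. Capitals in a miRNA mark the seed (bases 2 to 8), and capitals in a site mark the bases opposite the seed.
miR319c: tTGGACTGaagggagctcctt
TCP3 site: gaggggtccccttCAGTCCAt
TCP4 site: gaggggtccccttCAGTCCAg
miR166a-3p: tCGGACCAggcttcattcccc
PHV site: ttgggatgaagccTGGTCCGg
ATHB-15 site: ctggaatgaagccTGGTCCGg
miR171a-3p: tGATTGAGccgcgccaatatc
HAM2 site: gatattggcgcggCTCAATCa
miR394a: tTGGCATTctgtccacctcc
LCR site: ggaggttgacagAATGCCAa
miR395a: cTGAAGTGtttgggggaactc
SULTR2;1 site: aagttctcccaaaCACTTCAa
In TAIR10.1 coordinates these sites lie at chr1:19850522-19850542 (minus strand) in TCP3, chr3:5063300-5063320 (plus) in TCP4, chr3:22411544-22411564 (minus) in HAM2, chr1:9497605-9497624 (plus) in LCR and chr5:3193268-3193288 (plus) in SULTR2;1. Each of the 5 lies within 1 coding exon. The sites of PHV (chr1:10799330-10799445, minus) and ATHB-15 (chr1:19412976-19413085, minus) are split by an intron over 2 coding exons, so the genomic interval is longer than the site. The TCP3 and TCP4 sites share every base but the last, and the PHV and ATHB-15 sites share their seed match.

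Over the low-footprint genes, ratios ran from -5.28 to -3.001 with a median of -3.30, against a median of -1.07 over the 13570 genes. Their mRNA-seq exon values ran from 7.71 to 966 RPM with a median of 38.7, above the 22.9 RPM median of all tested genes. Ribo-seq values ran from 0 to 43.0 RPM with a median of 2.32, against 9.65 over all tested genes. In reads, the median low-footprint gene had 89 ribo-seq reads and 2593 mRNA-seq reads, so most of these low values rest on counted footprints.

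The genes next to the limit show how fine it is. PHYLLO (17.4 RPM of footprints, 147 RPM of mRNA, ratio -3.01), AT1G08210 (2.42 and 26.5 RPM, -3.01) and AT1G62130 (0.130 and 8.05 RPM, -3.001) fell just inside. AT4G12680 (0.0260 and 7.11, -2.98), AT5G03830 (0.130 and 7.92, -2.98) and AT5G27970 (7.41 and 65.2, -2.98) fell just outside. With a pseudocount of 1 a gene needs at least 6.94 RPM in mRNA-seq to reach the limit at all, as 12328 of the 13570 genes had.

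**Figure D1:**
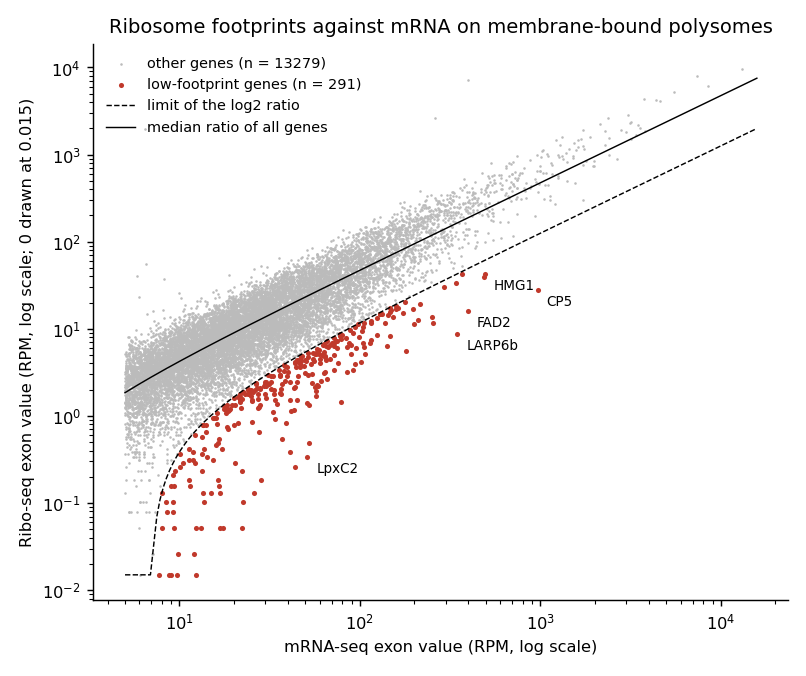
Ribo-seq exon value (y axis, RPM, log scale, 0 drawn at 0.015) against mRNA-seq exon value (x axis, RPM, log scale) of each gene in the 2 libraries. The 291 low-footprint genes (red) lie on or below the dashed limit, the 13279 others (grey) above it, and the solid line is the median ratio of all genes.

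The 10 low-footprint genes with the most mRNA were not confined to 1 function. CP5, annotated in the polyketide cyclase and lipid transport superfamily, had 966 RPM of mRNA and 28.2 RPM of footprints, a 34.3-fold gap and a ratio of -5.05. Its 64693 mRNA-seq reads were the highest number of any gene in the set. LARP6b, a La-related RNA-binding protein, had 347 RPM of mRNA and 8.77 RPM of footprints, a 39.6-fold gap and a ratio of -5.16. FAD2, the ER desaturase that makes linoleic acid, had 398.02 and 16.1 RPM, a 24.8-fold gap and a ratio of -4.55. Of the 10 genes, these 3 had the lowest ratios.

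Other genes of this group lay closer to the limit. HMG1, the HMG-CoA reductase of the mevalonate pathway, had 494 RPM of mRNA and 43.0 RPM of footprints (ratio -3.49). PAB2, a poly(A)-binding protein, had 489 and 39.8 RPM (-3.59), and ACR9, an ACT domain protein, had 343 and 34.0 RPM (-3.30). ADC2, an arginine decarboxylase of polyamine synthesis, had 293 and 30.2 RPM (-3.23). BIG, a very large protein needed for auxin transport, had 370.3 and 42.7 RPM (-3.09). PWD (AT5G26570), the phosphoglucan, water dikinase that phosphorylates starch, had 253 and 11.7 RPM (-4.32). RVE2, a MYB-like factor related to the circadian clock, had 249.9 and 13.6 RPM (-4.10). Per kilobase of coding sequence, the mRNA level of CP5 was 834 RPM and that of BIG only 24.2 RPM, since the BIG coding sequence is 15297 bases long. On the same per-kilobase scale the ribo-seq levels were 24.3 and 2.79 RPM.

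**Figure D2:**
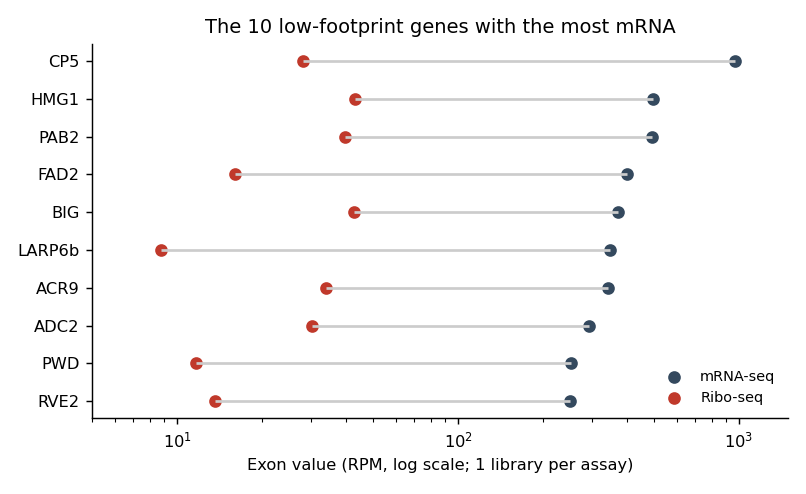
Exon value (x axis, RPM, log scale) in mRNA-seq (dark points) and ribo-seq (red points) of the 10 low-footprint genes with the most mRNA, 1 library per assay. The gap is widest in LARP6b (347 against 8.77 RPM) and narrowest in BIG (370.3 against 42.7 RPM).

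The lowest ratios among low-footprint genes with at least 10 RPM in mRNA-seq came partly from genes with very few footprints. LpxC2, annotated as a deacetylase of the lipid A pathway, had 13 ribo-seq reads against 3419 mRNA-seq reads (0.338 and 51.1 RPM, ratio -5.28). LpxC3 had 4 reads against 921 (0.104 and 13.8 RPM, -3.74). LpxC3 has near-identical copies (at least 95% identity over at least 80% of the coding sequence) in LpxC1, LpxC4 and LpxC5, each of which stood below 1 RPM in both libraries. The isoform of LpxC2 used here, with 378 coding bases, had no such copy by this criterion, but its exons overlap another annotated gene. How the counting shared reads between copies or overlapping genes is not stated, so both values are uncertain. The other 6 lipid A pathway genes in the table stood below 5 RPM in mRNA-seq and were not tested.

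Genes outside this family reached nearly as low. AT5G47435, a formyltetrahydrofolate deformylase, had 19 ribo-seq reads (0.494 RPM) beside 52.2 RPM of mRNA (ratio -5.15). AT5G24620, of the thaumatin superfamily, had 10 reads (0.260 RPM) beside 43.8 RPM (-5.15). TLP2, a tubby-like protein, had 55 reads (1.43 RPM) beside 79.1 RPM (-5.04). The phosphatase 5PTase12 had 15 reads (0.390 RPM) beside 41.2 RPM (-4.93), and DI19, named for its induction by drought, 214 reads (5.57 RPM) beside 179.5 RPM (-4.78). TAO1, a disease resistance protein, had 7 reads beside 28.4 RPM (-4.64), and ZFN3, a zinc finger protein, 21 reads beside 37.2 RPM (-4.63). At the extreme, 5 low-footprint genes had 0 ribo-seq exon reads, which allows up to 3 reads or 0.078 RPM, for counting error only. These were AT5G22700 (12.3 RPM in mRNA-seq), AT2G31150 (9.65), APRR8 (9.04), LAP6 (8.74) and RLP14 (7.71), named after their values were seen.

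Footprints in the 5' UTR were examined next, since uORFs lie there. Of 269 low-footprint genes with an annotated 5' UTR, 216 (80.3%, Wilson 95% interval 75.1 to 84.6) had an upstream ATG, against 62.4% of 13269 tested genes. An upstream frame of at least 20 codons that ends before the main start was found in 116 (43.1%, interval 37.3 to 49.1), against 24.3%. By class, low-footprint genes made up 1.06% of the 4994 genes with no upstream ATG, 1.98% of the 5050 with shorter frames only, 2.81% of the 2602 with a frame of 20 to 49 codons and 6.90% of the 623 with a frame of 50 or more codons. Long frames need long 5' UTRs, and the median 5' UTR was 271.5 bases in the low-footprint genes against 195 bases over all tested genes. In the quartile group of genes with the longest 5' UTRs (301 to 3680 bases), the share was 5.28% of 1836 genes with a frame of at least 20 codons and 2.43% of 1481 genes without. In the shortest group (1 to 124 bases) it was 5.45% of 55 genes and 1.53% of 3263 genes, and in the next (124 to 198 bases) 8 of 417 genes (1.92%) and 32 of 2900. The share was thus higher with a frame in 3 of the 4 groups, with only 3 low-footprint genes behind the 5.45%. In the group of 198 to 300 bases the order was opposite, with 0.872% of 917 genes (8 low-footprint genes) and 1.46% of 2400 genes.

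Many low-footprint genes had some footprints on the 5' UTR, but as a group fewer for their 5' UTR mRNA than all tested genes. Since the rule chose low exon footprints, the 5' UTR was also read on its own, by the ratio of its footprints to its mRNA with a pseudocount of 0.5. In the 173 low-footprint genes with at least 1 RPM of 5' UTR mRNA this ratio had a median of -2.34, against -1.96 over 6433 tested genes. At or above the median of all genes, which by definition splits the tested genes evenly, were 56 of the 173. The quartiles of the low-footprint genes were -3.11 and -1.81, against -2.49 and -1.58. The 5' UTR ratio exceeded the gene's own exon ratio (pseudocount 0.5 for both) in 155 of 173 low-footprint genes, or 89.6%, against 22.2% of all tested genes, a contrast that the choice by exon ratio favours.

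AT1G70780, an uncharacterized protein with an upstream frame of 50 codons, had the most 5' UTR footprints. Its 5' UTR held 757 ribo-seq reads (19.7 RPM) and its exons 308 reads (8.01 RPM), while mRNA-seq gave 78.3 RPM on the 5' UTR and 98.5 RPM on the exons. VTC2, the GDP-L-galactose phosphorylase of ascorbate synthesis, had 435 reads on the 5' UTR (11.3 RPM) and 437 on the exons (11.4 RPM), against 54.5 and 200.2 RPM in mRNA-seq. A known upstream frame of VTC2 begins at a codon other than ATG, and the scan for ATG frames found a short one of 10 codons. AT1G57680 had 6.84 RPM on the 5' UTR and 6.27 on the exons, against 41.7 and 142 RPM in mRNA-seq. ADC2 (6.53 and 30.2 RPM) and AT4G19110, a protein kinase (5.96 and 4.11 RPM), followed. In SAC51, a bHLH factor whose uORF is known to be controlled by thermospermine, 218 reads lay on the 5' UTR and 69 on the exons, so that the 5' UTR held 76.0% of these ribo-seq values and 45.0% of those in mRNA-seq. AT5G09460 (bHLH143), a relative of SAC51, had 175 and 35 reads, or 83.3% against 45.3%.

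Among the 204 low-footprint genes with a 5' UTR value and at least 20 ribo-seq reads, the 5' UTR held 20% or more of the ribo-seq values in 53 (25.98%), against 222 of 11973 tested genes (1.85%). The median share was 5.57% in ribo-seq, against 0.643% over the 11973 tested genes. In mRNA-seq the median share was 6.51% over 236 low-footprint genes and 4.05% over 12046 tested genes. Low exon footprints raise the ribo-seq share by themselves, so it describes where the remaining footprints lay.

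**Figure D3:**
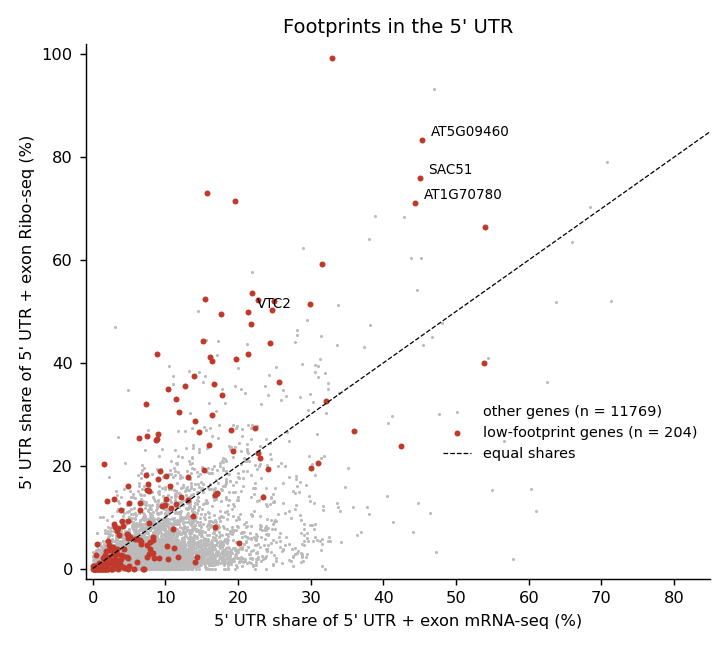
Share of the 5' UTR in the summed 5' UTR and exon value, in ribo-seq (y axis, %) against mRNA-seq (x axis, %), for genes with at least 20 such ribo-seq reads. The 204 low-footprint genes (red) spread up to 99.2% in ribo-seq, with AT5G09460 at 83.3%, SAC51 at 76.0% and AT1G70780 at 71.1%, and the dashed line marks equal shares.

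A separate set had few footprints on the 5' UTR as well. A 5' UTR was called low when its ratio lay at least 2 below the median of all 5' UTRs on the log2 scale, which 2.74% of the 6433 did and 20 of the 173 low-footprint genes (11.6%). The call needs at least 7.30 RPM of 5' UTR mRNA, as 62 low-footprint genes and 1049 tested genes had. Within these the share was 32.3% (Wilson 95% interval 22.0 to 44.6) and 16.8%. CP5 had 2 ribo-seq reads on its 5' UTR beside 27.9 RPM of mRNA, LARP6b 1 read beside 14.9 RPM, and ACR9 2 reads beside 15.8 RPM. FAD2 had 13 reads beside 36.4 RPM, PAB2 32 reads beside 49.1 RPM and DI19 5 reads beside 23.8 RPM. Thus 5 of the 10 low-footprint genes with the most mRNA, CP5, PAB2, FAD2, LARP6b and ACR9, were poor in footprints on both features, unlike VTC2 or SAC51. HMG1, BIG and PWD (AT5G26570) have no 5' UTR value in the table.

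Footprints on the 3' UTR were few in these genes, as in the tested genes at large. By the same rule, 30 of 225 low-footprint genes with at least 1 RPM of 3' UTR mRNA (13.3%) were called low. Over all 10651 tested genes with this minimum the share was 11.1%. On the 3' UTR the call needs at least 16.55 RPM of mRNA, as 33 low-footprint genes and 1308 tested genes had. Within these, 90.9% and 90.1% were called low. The shares of 13.3% and 11.1% thus mainly count genes with enough 3' UTR mRNA and cannot compare footprints. In sum, 143 ribo-seq reads and 155028 mRNA-seq reads fell on the 3' UTRs of 271 low-footprint genes, and 205 of these had no ribo-seq read there. RPS6, a disease resistance protein, had 19 reads, PTM 11, the methyltransferase AT5G26880 8 and EMB3114 7, while SAC51 and AT5G28919 had 6 each. PTM is a membrane-bound PHD factor, and EMB3114 belongs to the mitochondrial transcription termination factor family.

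Genes with a conserved uORF were read from a list of 36 loci. Of the 30 with enough mRNA, 10 were low-footprint genes (33.3%), and the list median was -2.67. All tested genes stood at 2.14% and -1.07. The list was made with earlier results of these data known, so its values are a description and cannot be weighed against those of all genes. Beside SAC51, bHLH143, VTC2 and AT1G70780, the low-footprint genes were VTC5, the second GDP-L-galactose phosphorylase (0.650 RPM of footprints, 27.7 RPM of mRNA), GRIK1, an upstream kinase of SnRK1 (1.56 and 22.2), ANK6, an ankyrin repeat protein (1.33 and 19.5), and MHX, a vacuolar cation exchanger (2.08 and 26.8). The bHLH155-like gene AT2G31280, listed as CPUORF7 (1.35 and 27.9), and AT5G03190, listed as CPUORF47 (0.416 and 11.3), completed the 10. The other 20 measured genes of the list lay above the limit, among them AT1G29950 of the SAC51 family at -2.97 and SAMDC, S-adenosylmethionine decarboxylase, at -2.24 with 183 RPM of footprints on its 5' UTR and 196 on its exons. MHX and AT5G03190 had little on the 5' UTR, with 4 reads and 1 read.

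The exon table also holds locus numbers that the annotation used here does not name, some of them within 3 of a tested gene's number. Such a neighbouring number stood beside 12 low-footprint genes (4.12%) and beside 68 of the 13570 tested genes (0.501%). There are 16 such entries beside the 12 genes. Their values are given without a comparison, since the genes beside them were chosen for a low ratio and most entries have too little mRNA to reach such a ratio with a pseudocount. AT1G70782 had 433 ribo-seq reads and 2025 mRNA-seq reads (11.3 and 30.2 RPM), and AT4G19112 had 93 and 446 reads. AT5G64341, next to SAC51, had 99 and 435 reads, and AT5G09461, next to bHLH143, 48 and 417 reads. What these entries are is not given by the annotation, and no name is assigned to them. Whether their reads are also part of the 5' UTR values of the genes beside them was not tested, so they are not independent values.

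In several families low-footprint genes stood beside relatives with ordinary ratios. Most of these families, and the kinase families below, were taken up because they hold low-footprint genes. Their counts are raised by that choice and cannot be set against the 2.14% of all tested genes. Both arginine decarboxylases were low-footprint genes (ADC1 20.3 RPM of footprints and 177 RPM of mRNA, ADC2 30.2 and 293 RPM), as were both GDP-L-galactose phosphorylases. LARP6a (3.20 and 64.2 RPM, -3.96) and LARP6b (-5.16) were low, while LARP1a lay at -0.36, La1 at -0.60 and the list's 7 measured genes had a median of -1.42. Among the 3 measured poly(A)-binding proteins, PAB2 lay at -3.59, PAB4 at -2.38 and PAB8 at -0.90. FAD2 (-4.55) and FAD3 (15.5 and 147 RPM, -3.17), the ER desaturases, were the low ones of 7 desaturases, and the plastid enzymes FAD6, FAD7 and FAD8 lay at -2.37, -2.32 and -1.29. HMG1 lay at -3.49 and HMG2 at -1.69.

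Kinase families showed the same mixture. WNK kinases lack the usual catalytic lysine, and WNK5 (2.03 and 36.8 RPM, -3.64), WNK8 (2.08 and 43.2, -3.84) and WNK10 (0.754 and 18.4, -3.47) were 3 of 8 measured members. Each of the 3 had an upstream frame of 62 to 71 codons, and their 5' UTRs held 40.3% to 52.5% of the ribo-seq values. WNK6, with no such frame, lay at -1.86, but WNK4, with a frame of 50 codons, lay at -1.53. The calcium sensor-regulated CIPK15 (4.08 and 75.9 RPM, -3.92) and SIP3, also known as CIPK6 (6.58 and 89.9, -3.58), were 2 of 12 measured CIPK kinases, with 52.0% and 35.5% of these values on the 5' UTR. Of 8 GTE/BET bromodomain genes, BET10 (1.93 and 56.9 RPM, -4.31), GTE2 (6.17 and 66.5, -3.24) and GTE7 (7.65 and 78.2, -3.195) were low. Their relative IMB1 lay at 0.24. RVE2 was the single low-footprint gene of 15 measured clock genes (median -1.41), and SR34b (0.650 and 14.1 RPM, -3.19) that of 20 splicing factors (median -0.9998).

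**Figure D4:**
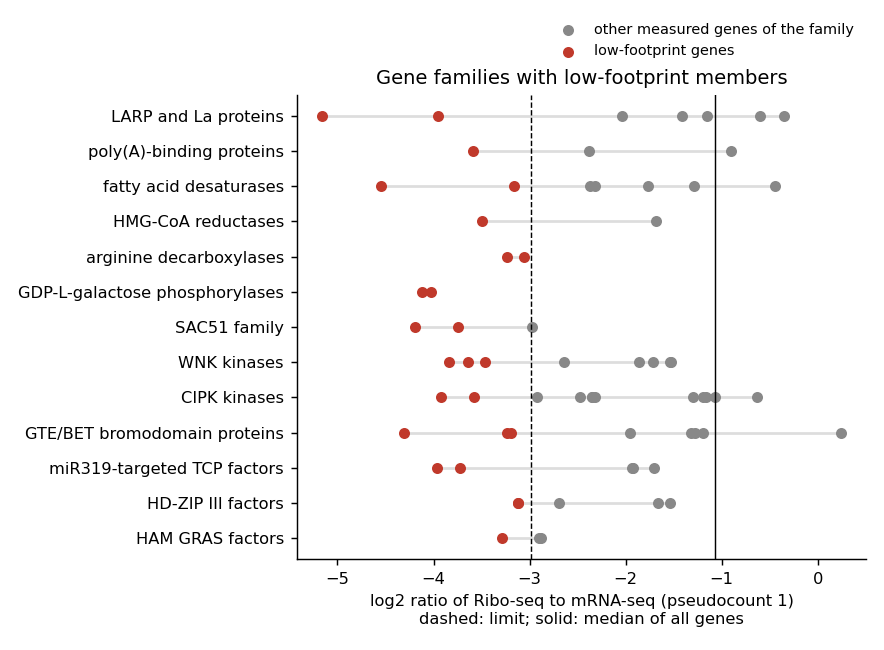
Log2 of footprints over mRNA on the exons (x axis, RPM, pseudocount 1) of the measured genes of 13 families (rows). Each family shown holds at least 1 low-footprint gene (red), with the others in grey. The dashed line is the limit, the solid line the median of all genes at -1.07, and families such as LARP and La proteins span from -5.16 to -0.36.

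MiRNA targets were counted in 2 ways. Of the 291 low-footprint genes, 26 (8.93%, Wilson 95% interval 6.17 to 12.8) stood on the study's list of known and predicted targets, against 735 of 13570 tested genes (5.42%). The list median was -1.297, near the -1.07 of all genes. Coding sequences were also searched with 51 mature miRNA sequences, counting 1 for a mismatch and 0.5 for a G:U pair, with no mismatch or G:U pair at positions 10 and 11. At a sum of up to 4, 24 of 290 low-footprint genes (8.28%) and 552 of 13541 tested genes (4.08%) had a match. At a sum of up to 3 it was 7 (2.41%) and 77 (0.569%). The low-footprint genes have longer coding sequences, whose part in these shares was not tested, and a match is a description of the letters only.

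The matches printed above had sums of 0 in HAM2, 1 in LCR, 2.5 in ATHB-15 and SULTR2;1, 3 in PHV and TCP4 and 3.5 in TCP3. By family and over all tested coding sequences, matches up to 4 were found for miR319 in 18 genes (0.133%) and for miR166 in 9 (0.0665%). For miR171 they were found in 11 (0.0812%), for miR394 in 16 (0.118%) and for miR395 in 21 (0.155%). In this order of families, low-footprint genes were 2, 3, 1, 1 and 1 of these genes. TCP3 (3.12 RPM of footprints, 63.2 RPM of mRNA, ratio -3.96) and TCP4 (2.47 and 44.9, -3.73), which promote the end of leaf cell division, were the low ones of 5 TCP genes that miR319 is known to target. TCP2, TCP10 and TCP24 carry matches too and lay at -1.93, -1.70 and -1.93. PHV (4.32 and 45.3 RPM, -3.12) and ATHB-15 (3.64 and 39.4, -3.12), HD-ZIP III factors of leaf polarity and vasculature, stood beside PHB at -2.70 with the same site as PHV, REV at -1.66 and HB-8 at -1.54, whose sites also match miR166. HAM2 (2.32 and 31.5 RPM, -3.29), a GRAS factor of the shoot meristem, stood just beyond HAM1 at -2.88 and HAM3 at -2.90, which hold the identical site. LCR, an F-box protein, had 2.86 and 32.2 RPM (-3.10), and SULTR2;1, a sulfate transporter, 13.6 and 153 RPM (-3.40). An identical site was thus found in PHV and PHB, and in HAM2, HAM1 and HAM3, on both sides of the limit, while the sites of TCP2, TCP10 and TCP24 differ in sequence from those of TCP3 and TCP4. TCP3, TCP4 and HAM2 also had 41.2%, 35.8% and 32.1% of their ribo-seq values on the 5' UTR, while PHV had 1.78%. Of 18 listed protein-coding loci that give rise to phasiRNAs, 8 had enough mRNA. None of the 8 was a low-footprint gene, and their lowest ratio was -2.33. At the 2.14% share of all tested genes, 8 loci are too few for this to be read as a trait of theirs.

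By words in the annotated product, 18 classes were counted, beside the 2.14% of all tested genes. The classes were chosen with earlier results of these data known, and several shares rest on few genes. WD40 proteins, alpha/beta hydrolases, receptor-like proteins and proteases were not among the classes planned at first. The classes follow these words only, so that RAP2.4 and XBAT31 were counted as uncharacterized and TBL5 as a zinc finger protein. Low-footprint genes were 8 of 94 measured disease resistance proteins (8.51%). The share was 3.94% to 5.00% in lipid transport proteins of the polyketide cyclase type (1 of 20), receptor-like proteins (4 of 81), alpha/beta hydrolases (5 of 111), transporters and channels (19 of 431), transcription factors or DNA-binding proteins (18 of 446), pentatricopeptide proteins (6 of 151) and F-box or kelch proteins (5 of 127). It was 2.76% to 3.36% in kinases (27 of 804), uncharacterized proteins (19 of 577) and WD40 proteins (4 of 145), and 1.61% to 2.53% in proteases (7 of 277), heat shock proteins (3 of 139), zinc finger proteins (9 of 477) and RNA-binding proteins (4 of 248). Ribosomal proteins had 1 of 296 (0.338%), and cytochrome P450 enzymes and transposon genes had 0 of 78 and 0 of 7. The disease resistance class as a whole had a low median of -1.87. SNC1 had 15.1 RPM of footprints and 173 RPM of mRNA (-3.43), and RPP4, its neighbour in the same resistance cluster, had 6.53 and 62.7 RPM (-3.08). AT5G40910 (1.40 and 51.0 RPM) and TAO1 (0.182 and 28.4 RPM) lay lower, at -4.44 and -4.64. AT5G40060, RPS6, CW9 and LOV1 ran from -3.88 to -3.03. Among pentatricopeptide genes, whose products mostly bind organelle RNA, AT5G04810 had the most mRNA (16.7 and 198 RPM, -3.49).

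Membrane transporters of the set included the plastid ATP carrier ATNTT2 (19.04 and 215 RPM, -3.43), the cationic amino acid transporter CAT2 (14.8 and 129, -3.04), the amino acid permease AAP2 (7.39 and 116, -3.80) and the borate exporter BOR1 (4.32 and 50.2, -3.27). EIN2, the ER membrane protein of ethylene signalling, had 11.8 and 105 RPM (-3.05). AT2G48060, a piezo-type channel component with the most predicted hydrophobic segments of the set (27), had 2.21 and 58.9 RPM (-4.22). A predicted segment was a window of 19 residues with a mean hydropathy of at least 1.6. At least one was found in 135 of 290 low-footprint genes (46.6%, Wilson 95% interval 40.9 to 52.3), against 36.4% of all tested genes, and 4 or more in 15.5% against 7.62%. The former share was 39.3% with a stricter limit of -3.5 and 39.6% with a pseudocount of 5, close to that of all tested genes. A segment within the first 60 residues was found in 17.9% (interval 13.9 to 22.8) and 16.8%. Low-footprint genes were 155 of the 8618 genes with no segment and 21 of the 373 with 8 or more (5.63%).

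Low-footprint genes had long coding sequences. Their median was 1629 bases against 1260 bases over all tested genes. They made up 0.797% of the quartile group with the shortest coding sequences (78 to 825 bases), 2.07% and 2.04% of the middle quartile groups, and 3.66% of the longest quartile group (1833 to 16182 bases). The median ratio of all tested genes also fell over these quartile groups, from -0.57 to -1.55, so length moved with the ratio in general, and its part in the number of low-footprint genes was not tested. Within the longest quartile group, low-footprint genes were 7.76% of 335 genes with 4 or more hydrophobic segments and 2.82% of 1949 genes with none. In the next longest group the shares were 3.25% of 369 and 1.89% of 1962, then 3.00% of 233 and 1.86% of 2311, and in the shortest group 0% of 95 and 0.835% of 2396.

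Other features lay closer to those of all tested genes. Low-footprint genes were 1.78% of genes with A 3 bases before the start codon and 2.12%, 2.57% and 2.33% of those with G, C and T. The median GC content of the coding sequence was 44.3% and 44.5%. Exons overlapped another annotated gene in 91 of 290 low-footprint genes (31.4%) and in 32.7% of all tested genes, and near-identical copies were found for LpxC3 and PLDGAMMA2 (0.69%) and for 1.76%. The share of low-footprint genes lay between 1.66% on chromosome 3 and 2.49% on chromosome 5. Of the 108 low-footprint genes with several isoforms, 8 had another isoform of at least 5 RPM above the limit. The share rose with the mRNA level, from 0.679% in the lowest quartile group of mRNA-seq values to 3.37% in the highest, in part because low genes cannot reach the limit with a pseudocount of 1.

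**Figure D5:**
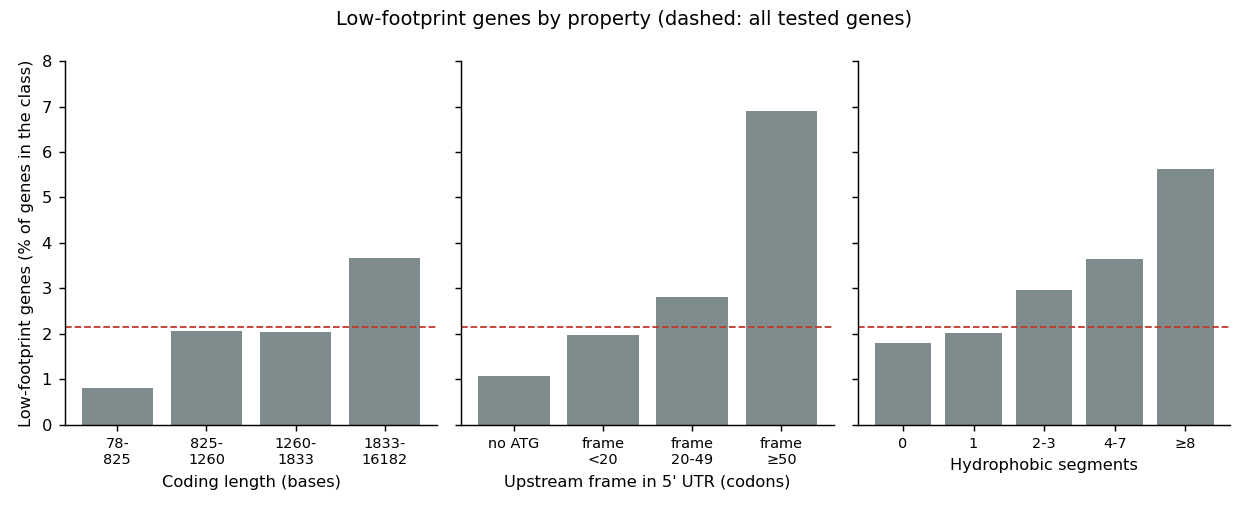
Low-footprint genes as % of the genes in each class (y axis), by coding length (left), upstream frame in the 5' UTR (middle) and number of predicted hydrophobic segments (right). The dashed line is the 2.14% of all tested genes, and the highest bars are 3.66%, 6.90% and 5.63%.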

How the data were processed

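The authors aligned MBP ribo-seq and MBP mRNA-seq reads with TopHat2 2.0 at default settings and assigned them to TAIR10 features with bedtools 2.23.0 at an overlap of at least 80%, and how multi-mapping reads or strand were handled for these libraries is not given in the sources used here. Deposited values are RPM per 5' UTR, exon set and 3' UTR of each isoform. A read counts for every isoform it overlaps, so the mRNA-seq exon column deposited by the authors as RPM sums to 1348201 and was handled as a signal. Exon sets seemed to hold coding sequence only, since the 5' UTR mRNA-seq value exceeded the exon value in 21 of 12046 tested genes.

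Values were whole multiples of 1 step in each library, and 99.9% came out whole (within 0.1 read), which gave the depths. An exact binomial test of these reads against the median gene, added after the data were seen and comparing only the 2 libraries, called 5713 genes lower and 5698 higher of 13570 at an adjusted 0.05 (Benjamini-Hochberg). It bears on no low-footprint gene, since the same values chose them. The members, lists and rule were chosen with earlier results of these data known, as were the genes named: the 10 with the most mRNA, the 10 lowest ratios with at least 10 RPM, those next to the limit, members of lists and of product families, and those with the most UTR footprints. Other genes were chosen after their values were seen. Names, coding sequences and miRNAs came from RefSeq TAIR10.1, whose gene models matched 13541 of 13570 tested genes by TAIR isoform name, and copies from blastn 2.17.0. Python 3.11.15, numpy 2.4.6, pandas 2.3.3 and scipy 1.17.1 were used, and the procedure was run on simulated reads. In these, changed genes were placed below the limit and all others at the median ratio, with counting error only. The simulation thus checks the code and has no bearing on the genes called here. With 1 library per assay no test across conditions was run. Alternatives covered the pseudocount, minimum, scaling, isoform, features, copies, overlaps and limit. Columns of summed values were not used.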

Additional observations from a re-analysis of the deposited data

How the results depend on the processing

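The number of low-footprint genes followed the pseudocount and the limit: 665 with a pseudocount of 0.1, 53 with 5, 437 with both UTRs added to the exons and 107 with a limit of -3.5, all 291 being among the 665 and 288 among the 437. Medians of the ratio were -3.52 at a pseudocount of 0.1, -3.21 at 5 and -3.91 with the stricter limit. Rescaling to nuclear exon sums was run with a changed limit, set 2 below the median of the rescaled ratios. The median of the low-footprint genes was then -2.75 (387 genes, 275 of them shared). The median coding length was 1482 bases with a pseudocount of 5 and 1404 with UTRs added. The share with a low 5' UTR was 7.56%, 28.6% and 20.8%, with a pseudocount of 0.1, a pseudocount of 5 and the stricter limit, and that with a low 3' UTR 8.08% and 32% for the 2 pseudocounts. These UTR shares also depend on how many of the genes have enough UTR mRNA to be called. A hydrophobic segment was found in 39.6% with a pseudocount of 5 and in 39.3% with the stricter limit, near the 36.4% of all genes, and a near-identical copy in 0 genes with a pseudocount of 5. The other 80 of 98 values moved by less than the counting interval of the main value, or less than 1.5 times for counts of genes. Not all of these are separate checks. Dropping the mRNA-seq minimum could not change the genes, since the limit itself needs 6.94 RPM. Reading the isoform with the highest mRNA-seq value returned the same 291 genes, and the value of the binomial test was counted within those genes. Shares of copies and overlaps are 0 by construction once such genes are removed and were not computed. No paired analysis was possible because there is 1 library per assay. Few footprints per gene limit the lowest ratios, and without replicates counting error is the only error known.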
